A study of Mus musculus with 98 samples.

Results

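The hippocampus of aged mice was compared between animals given a virus that raises ACSS2 and animals given the empty vector. ACSS2 is an enzyme that makes acetyl-CoA, the donor for histone acetylation, from acetate, and it is known for a role in gene activation during memory formation. The comparison comprised 24 of the 98 RNA samples of the study, chosen by table and column name: 12 mice with PhP.eB.upACSS2 and 12 with the PhP.eB vector. All were male C57BL6 mice labelled 22 to 23 months old, and the whole hippocampus was used. The virus was injected behind the eye at 21 to 22 months of age, at a dose of 1.5e11 viral genomes per the labels' protocols. Tissue was taken 2 months later, 30 minutes after a test of remote context memory, so the labelled age and the age implied by the protocol do not quite match. The labels name neither the promoter that drives Acss2 in the virus nor the cells that take it up. The rest of the series held cultured hippocampal neurons, 10-month-old C57BL6 mice and PS19 mice, which carry a mutant human tau transgene.

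Replicates 1 to 3 and 4 to 12 of each virus formed 2 sets that separated on the first principal component, computed from the 2000 genes of highest variance (32.8% of their variance). The labels give no reason for the sets. Each held both viruses (3 and 3 in the smaller set, 9 and 9 in the larger), so a term for the set was part of the test. Total counts ran from 11436140 to 24846470 with upACSS2 and from 12365368 to 28161314 with vector. The filter on low counts was passed by 9 of 9 general neuron markers, 10 of 10 dentate gyrus markers and 8 of 8 CA1 markers. It was also passed by 10 of 10 thalamic, 8 of 8 striatal and 11 of 11 choroid plexus and ependymal markers. Passing it thus does not tell the hippocampus from other regions.

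Of the 14 genes described below, 3 (Cdh5, Pecam1 and Flt1) belong to the endothelial marker list written with the design. No other list written with the design holds a called gene. Further lists, vascular ones among them, were added with the results known. The lists written with the design were chosen with earlier results of these data known too. Both kinds are thus a description and no separate support. As background, endothelial cells line brain capillaries and form the blood-brain barrier with tight junctions and transporters. Their growth and quiescence are set by vascular endothelial growth factor (VEGF) receptors, by the TIE and TEK receptors of the angiopoietins, and by endoglin, a co-receptor for bone morphogenetic proteins (BMP). Pericytes and smooth muscle cells, together called mural cells, surround the endothelial tube. PhP.eB is an adeno-associated virus capsid that enters the brain from the blood of C57BL6 mice by binding LY6A on endothelial cells.

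Of 15157 genes tested, 14 (0.0924%) passed an adjusted p of 0.05 in edgeR's quasi-likelihood test with Benjamini-Hochberg adjustment. With upACSS2, 13 were higher (0.0858%) and 1 was lower (0.0066%). The 13 were She, Eng, Mmrn2, Adgrf5, Pecam1, Tie1, Zyx, Flt1, Cdh5, Tinagl1, Ptprb, Cd93 and Pear1, with fold changes from 1.15 to 1.70. The lower gene was Atp5pb, a subunit of mitochondrial ATP synthase. In bulk tissue more cells of a type and more RNA per cell cannot be told apart. At an unadjusted p under 0.05 there were 1479 genes (9.76%), 767 higher (5.06%) and 712 lower (4.70%). The median log2 fold change over all genes was 0.00, and 50.7% were higher. Without a term for the set, edgeR called 0 genes (846 at an unadjusted p under 0.05, 1 called by DESeq2). With the term, DESeq2 called 69 genes, 53 higher and 16 lower. Leaving out 1 library moved the edgeR count from 14 to between 4 (without upACSS2 replicate 7, 8 or 12) and 44 (without vector replicate 3).

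Promoters are shown for the called genes of lowest p for which the RefSeq table (GRCm38.p6) held a promoter that overlapped no untranslated region of the GENCODE annotation. Each is the 250 bases before the gene's start, 5′ to 3′. Capitals mark GGAA on either strand (TTCC on the reverse), the core bound by ETS factors such as ERG and FLI1, which are central to endothelial gene expression.
She, chr3:89831120-89831369, plus strand: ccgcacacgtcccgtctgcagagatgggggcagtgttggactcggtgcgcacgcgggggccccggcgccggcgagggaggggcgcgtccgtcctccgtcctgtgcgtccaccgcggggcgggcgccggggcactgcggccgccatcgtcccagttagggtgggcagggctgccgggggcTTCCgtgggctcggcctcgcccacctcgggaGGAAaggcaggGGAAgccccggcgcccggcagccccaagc
Eng, chr2:32646345-32646594, plus strand: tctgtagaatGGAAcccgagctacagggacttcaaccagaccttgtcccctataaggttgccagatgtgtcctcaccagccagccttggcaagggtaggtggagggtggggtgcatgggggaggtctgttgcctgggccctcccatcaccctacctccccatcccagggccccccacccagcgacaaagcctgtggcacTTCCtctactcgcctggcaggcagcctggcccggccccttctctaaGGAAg
Adgrf5, chr17:43360181-43360430, plus strand: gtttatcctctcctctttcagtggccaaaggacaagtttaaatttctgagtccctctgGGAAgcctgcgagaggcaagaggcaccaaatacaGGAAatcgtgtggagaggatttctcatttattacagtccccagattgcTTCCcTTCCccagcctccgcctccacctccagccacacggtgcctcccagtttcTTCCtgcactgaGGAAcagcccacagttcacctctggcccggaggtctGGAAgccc
Flt1, chr5:147726012-147726261, minus strand: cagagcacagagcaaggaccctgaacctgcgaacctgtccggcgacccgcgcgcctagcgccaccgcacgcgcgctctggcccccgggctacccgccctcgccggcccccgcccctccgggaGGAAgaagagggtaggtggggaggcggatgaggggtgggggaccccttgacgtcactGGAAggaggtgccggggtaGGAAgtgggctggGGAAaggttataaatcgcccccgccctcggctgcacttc

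These promoters held 3, 3, 7 and 4 copies of the core in the order shown. The table held a promoter for 8 of the 13 higher genes, and none was found for Mmrn2, Pecam1, Cdh5, Ptprb and Cd93. GGAA was present in 8 of the 8, with a median of 3.5 copies, and in 92.8% of the 11368 promoters of all genes tested, with a median of 3. The longer ETS sequence ACAGGAA was present in Adgrf5, Tie1 and Tinagl1, 3 of 8, and in 5.63% of all promoters. AACAGGAA, a joined forkhead and ETS core that contains ACAGGAA, was in 0 of 8 and 1.75% of all. The KLF sequence CCACACCC was in Tie1 and 3.34% of all, and the GATA sequence AGATAA in 0 of 8 and 5.62% of all. Both strands were searched, and a match only describes the letters in these windows. The windows of Tie1, Zyx and Pear1, among the 8, overlapped an untranslated region. The start used for Pear1 lay 55353 bases from the 5′ end of the gene in GENCODE.

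Acss2 itself, on GRCm38 chromosome 2 from 155517948 to 155585724 (plus strand), was modestly higher. Levels are given as CPM, which are counts scaled to the library's total after its adjustment by TMM. In replicates 1 to 3 Acss2 was 49.0, 45.7 and 48.9 CPM with vector and 60.5, 46.7 and 54.7 CPM with upACSS2. In replicates 4 to 12 the lowest, median and highest were 39.96, 48.0 and 53.7 CPM with vector and 48.2, 55.1 and 61.5 CPM with upACSS2. The viruses overlapped in both sets, and 8 of 12 upACSS2 mice lay above every vector mouse. The means were 54.4 ± 4.67 and 47.3 ± 3.39 CPM (SD, n = 12 each), a difference of 7.04 CPM (exact permutation within sets, two-sided, p = 0.000555). The difference was 7.36 CPM in replicates 4 to 12 (exact permutation p = 0.00152) and 6.09 CPM in replicates 1 to 3 (p = 0.30, where the exact permutation test cannot go below 0.1). Over all genes the rise of 0.20 ± 0.05 on the log2 scale (SE) did not pass (adjusted p = 0.094, edgeR). Counts do not tell the virus's transcript from the mouse's own, and Acss2 overlaps antisense genes while the strand setting of the counting is not given in the sources used here.

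**Figure D1:**
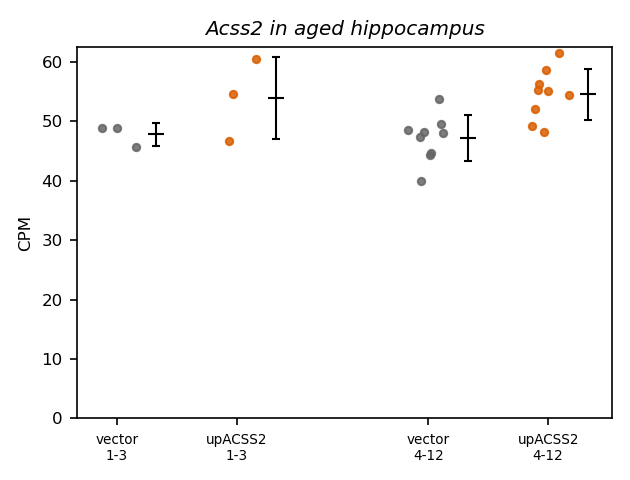
Acss2 in each aged mouse (CPM, points), by virus and replicate set, with the mean and SD of each group beside the points. In replicates 4 to 12 the median lay at 48.0 CPM with vector and 55.1 CPM with upACSS2, with overlap in both sets.

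She and Eng were the genes of lowest p, and the only genes of 15157 (0.0132%) for which every upACSS2 mouse lay above every vector mouse within both sets. No gene (0%) was lower in this way. She, on chromosome 3 from 89831370 to 89858834 (plus strand), encodes an SH2-domain adaptor protein. It was 3.98, 3.06 and 3.53 CPM with vector and 6.05, 4.51 and 5.45 CPM with upACSS2 in replicates 1 to 3. Across the larger set it ran from 1.28 through a median of 1.62 to 1.92 CPM with vector and from 1.98 through 2.75 to 3.42 CPM with upACSS2. Each set thus separated by virus although the sets differed from each other in level. The rise of She in log2 units was 0.72 ± 0.10 (SE, n = 12 each, adjusted p = 0.0016, edgeR).

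Eng encodes endoglin, the co-receptor through which BMP9 and ALK1 signal in endothelium, and lies on chromosome 2 from 32646595 to 32682669 (plus strand). In replicates 1 to 3 it was 16.9, 13.6 and 17.02 CPM with vector and 17.5, 18.3 and 22.9 CPM with upACSS2. Replicates 4 to 12 ran from 5.11 through 6.11 to 7.51 CPM with vector and from 7.81 through a median of 9.82 CPM upward with upACSS2. The rise of Eng in log2 units was 0.56 ± 0.08 (SE, n = 12 each, adjusted p = 0.00215, edgeR). Eng overlaps Fpgs on the opposite strand, whose reads cannot be told apart without the strand setting. Of 12 genes of the BMP9, ALK1 and endoglin pathway, 8 were higher and 1 passed, Eng itself, with a median log2 fold change of 0.11. Acvrl1, which encodes the receptor ALK1, had a log2 fold change of 0.54 (adjusted p = 0.0836, edgeR), and the feedback inhibitor Smad6 0.53 (adjusted p = 0.242, edgeR).

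**Figure D2:**
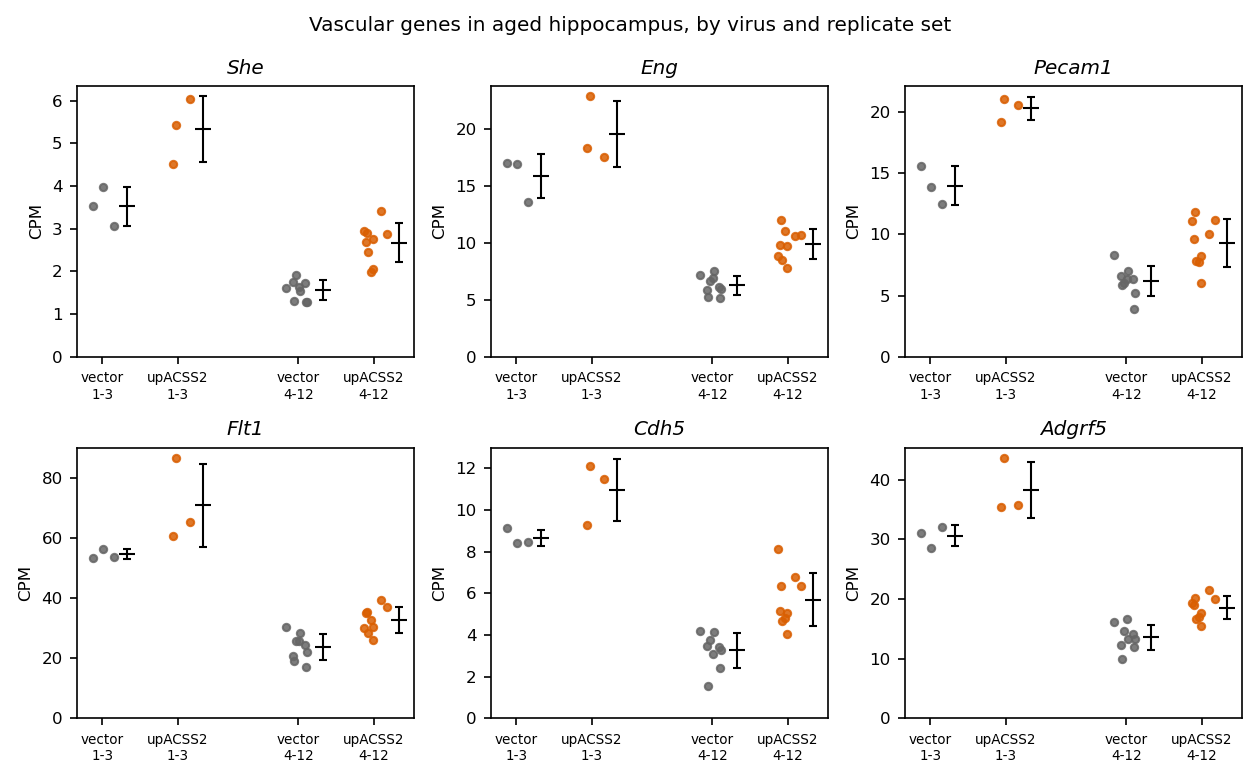
Of the genes past the threshold, She, Eng, Pecam1, Flt1, Cdh5 and Adgrf5 are plotted for each aged mouse (CPM, points), by virus and replicate set, with the mean and SD beside the points. In She and Eng the viruses do not overlap within either set, and each gene lies higher in replicates 1 to 3 than in replicates 4 to 12.

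Several genes for surface proteins typical of endothelium rose. Of 14 tested members of a list of pan-endothelial surface and orphan genes, 13 were higher, 6 passed, and the median log2 fold change was 0.40. Over all genes tested 50.7% were higher and 0.0858% passed as higher. This list was added with the results known, so its 6 calls are no separate support. The same holds for the BMP list above and for the VEGF, junction, flow, transcription factor, transporter, basement membrane, pericyte and ATP synthase lists below. Cd93, a C-type lectin-like receptor, and Mmrn2, its extracellular matrix ligand, both passed. Mmrn2 was 3.69, 2.84 and 3.25 CPM with vector and 5.28, 3.98 and 4.16 CPM with upACSS2 in replicates 1 to 3. Its medians in replicates 4 to 12 were 1.30 and 2.18 CPM, where 8 of 9 upACSS2 mice lay above every vector mouse. Mmrn2 had the highest log2 fold change of the 14 (0.77 ± 0.13, SE, adjusted p = 0.0129, edgeR). Cd93 was 3.26, 4.69 and 3.96 CPM with vector and 8.57, 4.59 and 8.24 CPM with upACSS2 in replicates 1 to 3, and the 4.59 CPM fell among the vector values. Across the larger set its medians were 1.59 and 2.37 CPM, and 4 of 9 upACSS2 libraries exceeded the highest vector library. Its log2 fold change was 0.70 (adjusted p = 0.0401, edgeR).

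Adgrf5, an adhesion G protein-coupled receptor, was among the better expressed of these genes. It was 28.6, 32.1 and 31.1 CPM with vector and 35.8, 35.3 and 43.7 CPM with upACSS2 in replicates 1 to 3. In replicates 4 to 12 it ran from 9.86 through 13.4 to 16.7 CPM with vector and from 15.6 through 19.0 to 21.6 CPM with upACSS2, and 7 of 9 upACSS2 mice lay above every vector mouse. The rise of Adgrf5 in log2 units was 0.41 ± 0.07 (SE, n = 12 each, adjusted p = 0.0147, edgeR). Pear1, a receptor first described on platelets and also found on endothelium, was low, with medians of 1.04 and 1.82 CPM in replicates 4 to 12 (log2 fold change 0.66, adjusted p = 0.0486, edgeR). Its annotated span overlaps other genes, so part of its reads is uncertain. Adgrl4, a relative of Adgrf5, and Emcn, which encodes endomucin, did not pass, with log2 fold changes of 0.40 and 0.44 (adjusted p = 0.141 and 0.248, edgeR).

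Among growth factor receptors, Flt1 and Tie1 passed. Flt1, which encodes VEGF receptor 1, lies on chromosome 5 from 147561604 to 147726011 (minus strand). It was 56.4, 53.8 and 53.3 CPM with vector and 65.2, 60.7 and 86.5 CPM with upACSS2 in replicates 1 to 3. Across the larger set it ran from 16.9 through 24.4 to 30.3 CPM with vector and from 26.0 through 32.6 to 39.5 CPM with upACSS2, where the ranges overlapped. The rise of Flt1 in log2 units was 0.44 ± 0.08 (SE, n = 12 each, adjusted p = 0.0329, edgeR). Tie1, an orphan relative of the angiopoietin receptor, had medians of 2.27 CPM with vector and 3.52 CPM with upACSS2 in replicates 4 to 12, with 8 of 9 upACSS2 mice above every vector mouse. In replicates 1 to 3 Tie1 was 7.39, 6.33 and 5.72 CPM with vector and 8.11, 9.26 and 8.31 CPM with upACSS2 (log2 fold change 0.68, adjusted p = 0.0243, edgeR).

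Kdr, the main signalling VEGF receptor, lay just outside the threshold, with medians of 6.68 and 9.48 CPM in replicates 4 to 12 and a log2 fold change of 0.49 (adjusted p = 0.0567, edgeR). Tek, the angiopoietin receptor, had 0.41 (adjusted p = 0.193, edgeR) and Angpt2, an angiopoietin made by endothelium, 0.48 (adjusted p = 0.388, edgeR). Of the 12 VEGF and angiopoietin receptors and ligands, 10 were higher and 2 passed, with a median log2 fold change of 0.25. Ptprb encodes the endothelial phosphatase VE-PTP, which acts on TEK and on VE-cadherin. It was 30.6, 32.2 and 37.3 CPM with vector and 40.9, 36.6 and 47.6 CPM with upACSS2 in replicates 1 to 3. The larger set had medians of 13.8 and 19.7 CPM, and 7 of 9 upACSS2 libraries exceeded the highest vector library (log2 fold change 0.51, adjusted p = 0.0401, edgeR).

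Genes of endothelial junctions were led by Pecam1 and Cdh5, which encode the adhesion proteins CD31 and VE-cadherin. Pecam1 was 13.8, 12.4 and 15.6 CPM with vector and 20.6, 19.2 and 21.1 CPM with upACSS2 in replicates 1 to 3. Replicates 4 to 12 ran from 3.91 through 6.32 to 8.35 CPM with vector and from 6.00 through 9.62 to 11.9 CPM with upACSS2, with overlap. The rise of Pecam1 in log2 units was 0.57 ± 0.10 (SE, n = 12 each, adjusted p = 0.0243, edgeR). Cdh5 was 8.403, 8.46 and 9.11 CPM with vector and 11.5, 9.26 and 12.1 CPM with upACSS2 in replicates 1 to 3, and its medians were 3.43 and 5.13 CPM in replicates 4 to 12. There 8 of 9 upACSS2 mice lay above every vector mouse (a rise of 0.66 ± 0.13 in log2 units, SE, adjusted p = 0.0329, edgeR). Of 11 junction genes 10 were higher and 2 passed, with a median log2 fold change of 0.35. Cldn5, the main claudin of brain capillaries, had 0.50 (adjusted p = 0.0721, edgeR), Lsr, a protein of tricellular junctions, 0.62 (adjusted p = 0.0836, edgeR) and Esam, an endothelial adhesion molecule, 0.31 (adjusted p = 0.193, edgeR).

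Zyx and Tinagl1 completed the higher genes. Zyx encodes zyxin, a protein of focal adhesions and actin fibres that many cell types make. It was 29.8, 27.4 and 32.7 CPM with vector and 35.2, 35.5 and 32.4 CPM with upACSS2 in replicates 1 to 3. In replicates 4 to 12 it ran from 26.0 through 27.8 to 30.3 CPM with vector and from 28.0 through 32.1 to 33.9 CPM with upACSS2. Its rise of 0.20 ± 0.04 in log2 units (SE, adjusted p = 0.0243, edgeR) was the smallest of the 13, and it differed least between the sets, by 0.10 on the log2 scale. Zyx overlaps Epha1 on the opposite strand. Tinagl1, a matrix protein, had medians of 1.68 and 2.82 CPM in replicates 4 to 12 (log2 fold change 0.69, adjusted p = 0.0401, edgeR). Of 10 vascular basement membrane genes, 10 were higher and 1 passed, Tinagl1, with a median of 0.29. Nid1, which encodes nidogen 1, had 0.55 (adjusted p = 0.0958, edgeR) and Lamb2, a laminin chain, 0.29 (adjusted p = 0.11, edgeR).

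The genes ranked 15 to 30 by p, which did not pass (adjusted p from 0.0567 to 0.0788, edgeR), were higher in 14 of 16 cases. Besides Kdr and Cldn5 they held the transcription factors Klf2, Klf4, Foxc1, Foxf2 and Gata2, Vwf (von Willebrand factor), Slc19a3 (a thiamine transporter), Slc6a6 (the taurine transporter), Adcy4, Itga11, Atp2a3 and A4galt. The lower ones were Mrps18c, a mitochondrial ribosome subunit, and Emc2. Of 16 endothelial transcription factors 14 were higher, 0 passed and 8 had an unadjusted p under 0.05, with a median log2 fold change of 0.34. Over all genes tested 5.06% were higher at that level. Erg, an ETS factor of endothelium, had 0.45 (adjusted p = 0.154, edgeR). Of 9 genes known to respond to blood flow, 9 were higher, 0 passed and 7 had an unadjusted p under 0.05, with a median of 0.42. Among them Klf2 had medians of 3.27 and 4.84 CPM in replicates 4 to 12 (log2 fold change 0.59), Klf4 had 0.64, Nos3, the endothelial nitric oxide synthase, 0.42 (adjusted p = 0.188, edgeR) and Edn1, which encodes endothelin 1, 0.81 (adjusted p = 0.0836, edgeR).

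No blood-brain barrier transporter passed. Of 13, 11 were higher and 7 had an unadjusted p under 0.05 (5.06% of all genes were higher at that level), and the median log2 fold change was 0.15. The glucose transporter Slc2a1 had a mean of 46.0 CPM with vector and 52.1 CPM with upACSS2 (log2 fold change 0.19, adjusted p = 0.304, edgeR). The efflux pump Abcb1a had 0.36 (adjusted p = 0.132, edgeR) and the anion transporter Slc22a8 0.61 (adjusted p = 0.174, edgeR). Ly6a, the receptor of the capsid, had a mean of 6.87 CPM with vector and 8.19 CPM with upACSS2 (log2 fold change 0.23, adjusted p = 0.592, edgeR). Over the whole list of 10 endothelial markers, 10 were higher, 3 passed (Cdh5, Pecam1 and Flt1) and 10 had an unadjusted p under 0.05. The median log2 fold change was 0.39. Lists of arterial, venous, Notch and vascular smooth muscle genes, also added with the results known, held no called gene. Their members were higher in 4 of 5, 6 of 7, 8 of 10 and 5 of 6 cases, with medians of 0.08, 0.14, 0.10 and 0.25. At an unadjusted p under 0.05, 2, 2, 3 and 1 of them were higher, and 1 venous gene was lower (-1.75).

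**Figure D3:**
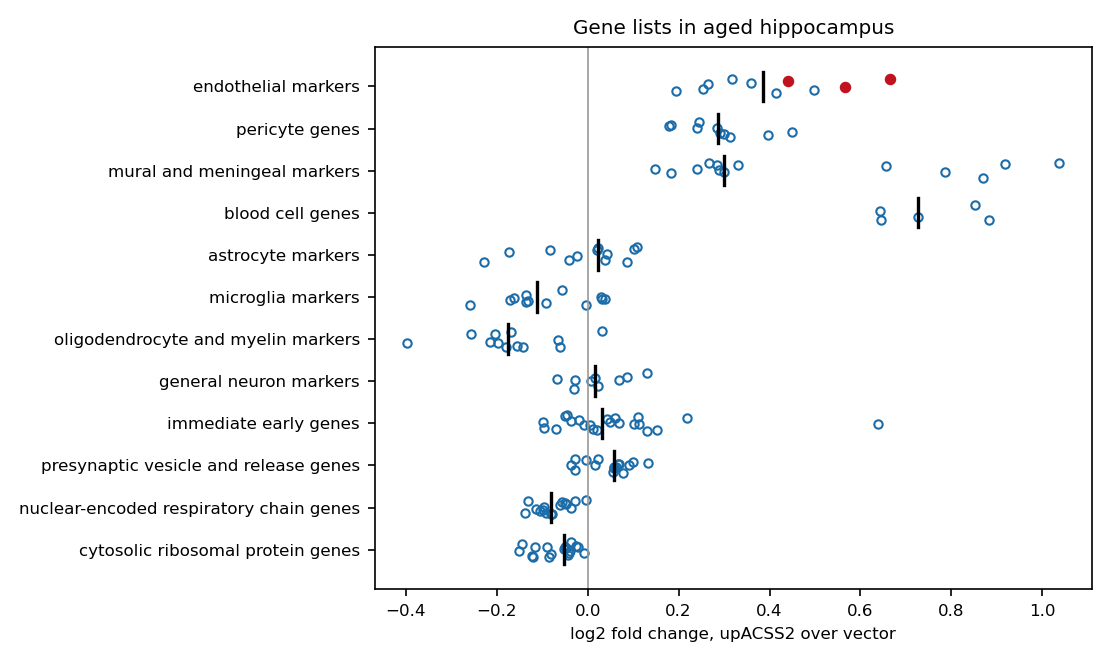
Log2 fold change of each tested member of 12 gene lists in the aged mice (upACSS2 over vector), with filled points for genes past the threshold and a bar at each list's median. The medians lie at 0.39 for endothelial, 0.29 for pericyte, 0.30 for mural and meningeal and 0.73 for blood cell genes, and between -0.17 and 0.06 for the lists of other brain cells and functions.

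Markers of the cells around the vessels held no gene past the threshold. Of 10 pericyte genes 10 were higher and 8 had an unadjusted p under 0.05 (5.06% of all genes were higher at that level), with a median log2 fold change of 0.29. Pdgfrb, the pericyte receptor for platelet-derived growth factor, was 17.2, 18.4 and 19.7 CPM with vector and 17.98, 19.7 and 20.4 CPM with upACSS2 in replicates 1 to 3. Its medians were 9.63 and 12.97 CPM in replicates 4 to 12 (log2 fold change 0.24, adjusted p = 0.0976, edgeR). Of 13 mural and meningeal markers 13 were higher, 0 passed and 9 had an unadjusted p under 0.05, with a median of 0.30. A few libraries stood apart in this list. Its score, the mean of log2(CPM + 0.5), was 3.79, 3.84, 3.63 and 3.71 in upACSS2 replicates 1, 5, 8 and 9, from 2.76 to 3.23 in the other 8 upACSS2 libraries and from 2.54 to 3.26 in the vector libraries. The highest log2 fold changes there were in genes of fibroblasts and the meninges: Col3a1, a fibrillar collagen, had 1.04 (adjusted p = 0.243, edgeR), Ptgds, prostaglandin D2 synthase, 0.92 (adjusted p = 0.22, edgeR) and Slc6a13, a GABA transporter of the meninges, 0.87 (adjusted p = 0.212, edgeR). Ptgds was 830, 633, 501 and 499 CPM in those 4 upACSS2 libraries, from 122 to 284 CPM in the other 8 and from 124 to 307 CPM with vector, so its highest values came from the libraries that stood apart. Ptgds is part of that score, so this is partly built in. The same score over the endothelial markers was 4.11, 4.09 and 4.14 in upACSS2 replicates 5, 8 and 9 and 4.10 in replicate 12. The rest of upACSS2 replicates 4 to 12 ran from 3.62 to 3.96. In the smaller set upACSS2 replicates 1, 2 and 3 had 4.81, 4.69 and 5.05.

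Red blood cell genes did not pass. Of 5 tested blood cell genes 5 were higher and 5 had an unadjusted p under 0.05 (5.06% of all genes were higher at that level), with a median log2 fold change of 0.73. The hemoglobin gene Hbb-bs was 50.3, 43.9 and 28.2 CPM with vector and 70.9, 52.3 and 34.0 CPM with upACSS2 in replicates 1 to 3. Across the larger set it ran from 20.7 through 41.5 to 54.7 CPM with vector and from 22.2 through 54.5 to 144 CPM with upACSS2, where 4 of 9 exceeded the highest vector value. The highest Hbb-bs values, 113 and 144 CPM, were those of upACSS2 replicates 6 and 9. The score of this list, the mean of log2(CPM + 0.5), was 3.77 and 4.18 in those libraries. It ran from 1.64 to 3.12 in the rest of upACSS2 replicates 4 to 12 and from 1.50 to 2.73 in vector replicates 4 to 12. Hba-a1 had a log2 fold change of 0.88 (adjusted p = 0.276, edgeR), and Alas2, the heme synthesis enzyme of red cells, 0.73 (adjusted p = 0.367, edgeR). With the mean level of 4 hemoglobin genes as a covariate, 1 gene passed, She (log2 fold change 0.64, adjusted p = 0.0489, edgeR), and Eng had 0.51 (adjusted p = 0.0566, edgeR). The endothelial marker median was 0.35 with that covariate and 0.39 without it. The part of blood in the vascular result was otherwise not tested.

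The sets differed in vessel genes too. The endothelial markers were higher in replicates 1 to 3 than in 4 to 12 by a median of 1.16 on the log2 scale, 10 of 10 members. All 13 higher genes were also higher in replicates 1 to 3, by 0.10 to 1.37, and the virus and set differences had the same sign in 14 of the 14 called genes and in 60.1% of all genes tested. Nuclear-retained long noncoding RNAs such as Malat1 and Meg3 differed between the sets too, with 11 of 11 higher in replicates 1 to 3 and a median of 2.10, and choroid plexus and ependymal markers were lower there by a median of 1.23. Between the viruses the same noncoding RNAs were lower in 10 of 11 cases with a median of -0.10. With their score as a covariate 23 genes passed, 17 higher and 6 lower, among them 14 of the 14.

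For the called genes the virus difference had the same direction within each set. For 14 of the 14 the mean log2 level moved the same way in replicates 1 to 3 and in 4 to 12. They were called on these same libraries, so this is a description and no separate support. The endothelial score was the mean of log2(CPM + 0.5) over the 10 markers. In replicates 1 to 3 it was 4.63, 4.59 and 4.54 with vector and 4.81, 4.69 and 5.05 with upACSS2. Replicates 4 to 12 ran from 3.09 through 3.54 to 3.75 with vector and from 3.62 through 3.96 to 4.14 with upACSS2, where 6 of 9 lay above every vector mouse. Within replicates 4 to 12 alone 6 genes passed (edgeR), 4 higher and 2 lower, including She, Eng, Mmrn2 and Atp5pb, with 1745 (11.4%) at an unadjusted p under 0.05 and 121 called by DESeq2. Within replicates 1 to 3 alone 0 passed in edgeR (488 at an unadjusted p under 0.05, 7 called by DESeq2). The interaction of virus and set gave 0 genes in edgeR (847 at an unadjusted p under 0.05, 5.59%, 1 called by DESeq2), with the lowest adjusted p at 0.464 for Ankrd63.

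**Figure D4:**
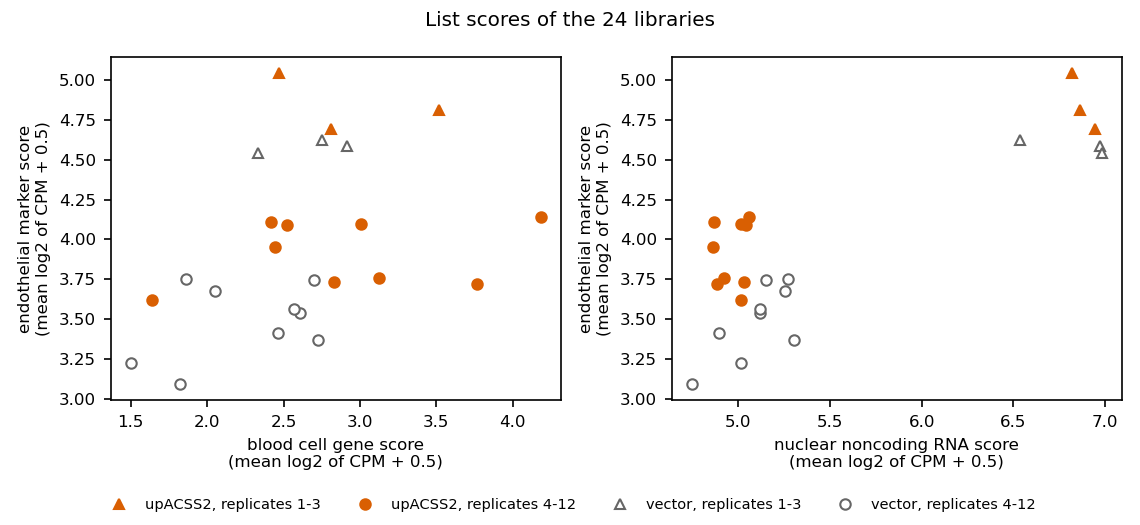
Endothelial marker score of each library against its blood cell gene score (left) and its nuclear noncoding RNA score (right), each the mean of log2(CPM + 0.5) over the list, with triangles for replicates 1 to 3 and circles for replicates 4 to 12. Within replicates 4 to 12 the endothelial score has a median of 3.54 with vector and 3.96 with upACSS2, and replicates 1 to 3 lie apart on the horizontal axis of the right panel.

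The lower gene, Atp5pb (named Atp5f1 in GENCODE), encodes the b subunit of the stalk of ATP synthase. It was 193, 184 and 172 CPM with vector and 180, 176 and 179 CPM with upACSS2 in replicates 1 to 3, with overlap. In replicates 4 to 12 it ran from 223 through 239 to 263 CPM with vector and from 193 through 215 to 218 CPM with upACSS2, and every upACSS2 mouse lay below every vector mouse. In log2 units Atp5pb fell by 0.16 ± 0.03 (SE, n = 12 each, adjusted p = 0.0486, edgeR), with -0.04 within replicates 1 to 3 and -0.20 within replicates 4 to 12 as differences of mean log2(CPM + 0.5). The call did not hold with limma-voom (adjusted p = 0.0515), RLE size factors in edgeR (adjusted p = 0.0506) or the replicate block in edgeR (adjusted p = 0.19), and it held in 6 of the 24 edgeR fits that left out 1 library. Non-overlap within replicates 4 to 12 was found for 11 lower genes (0.0726%) and 6 higher genes (0.0396%). Atp5pb overlaps Wdr77 on the opposite strand.

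Other genes of mitochondria and translation had small negative values. Of 16 ATP synthase subunits 15 were lower, 1 passed and 9 had an unadjusted p under 0.05, with a median log2 fold change of -0.08. Over all genes tested 4.70% were lower at that level. Of 16 nuclear-encoded respiratory chain genes 16 were lower, 0 passed and 6 had an unadjusted p under 0.05, with a median of -0.08. Of 18 cytosolic ribosomal protein genes 18 were lower, 0 passed and 4 had an unadjusted p under 0.05, with a median of -0.05. For these 3 lists the median within replicates 1 to 3 was 0.01, 0.03 and 0.02, against -0.13, -0.11 and -0.08 within replicates 4 to 12. The 14 mitochondrially encoded genes were higher in 9 cases with a median of 0.02. With the respiratory chain score as a covariate 1 gene passed, She (log2 fold change 0.71, adjusted p = 0.0256, edgeR), and the endothelial median was 0.31.

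No neuronal gene or gene induced by activity passed. Of 22 immediate early genes 14 were higher, 0 passed and 2 had an unadjusted p under 0.05, Klf4 and Jun, with a median log2 fold change of 0.03. The 2 of 22 are near the share over all genes at that level, 9.76% in either direction. Arc, an effector of synaptic plasticity, was 270, 267 and 162 CPM with vector and 163, 168 and 152 CPM with upACSS2 in replicates 1 to 3. Across the larger set it ran from 164 through 181 to 383 CPM with vector and from 135 through 191 to 333 CPM with upACSS2, so the ranges overlapped widely. Its log2 fold change was -0.10 (adjusted p = 0.911, edgeR) and that of Fos -0.02 (adjusted p = 0.992, edgeR). Of 16 presynaptic genes 12 were higher with a median of 0.06 and of 16 postsynaptic scaffold genes 12 were higher with a median of 0.03, and 0 passed in either list. Syn1, which encodes a synaptic vesicle protein, had 0.13 (adjusted p = 0.276, edgeR) and Shank1, a scaffold, 0.21 (adjusted p = 0.346, edgeR). Of 9 general neuron markers 6 were higher with a median of 0.02.

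Enzymes of acetyl-CoA and chromatin did not pass either. Of 11 acetyl-CoA producing enzymes 8 were lower with a median log2 fold change of -0.05, and the lowest values of p were those of Acat1 (-0.07) and Pdha1 (-0.08), enzymes of mitochondrial acetyl-CoA metabolism (adjusted p = 0.371 and 0.456, edgeR). Of 12 histone acetyltransferases 9 were higher with a median of 0.04, and of 18 histone deacetylases and sirtuins 10 were lower with a median of 0.00. Hdac7, a deacetylase known from endothelium, had 0.19 (adjusted p = 0.173, edgeR). Of 20 cholesterol synthesis and uptake genes 14 were lower with a median of -0.05.

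No glial marker passed. Of 12 oligodendrocyte and myelin markers 11 were lower, 0 passed and 2 had an unadjusted p under 0.05 (4.70% of all genes were lower at that level), with a median log2 fold change of -0.17. Mobp, a myelin protein gene, was 858, 779 and 623 CPM with vector and 491, 718 and 515 CPM with upACSS2 in replicates 1 to 3, and its medians were 1040.0 and 904 CPM in replicates 4 to 12. Its log2 fold change was -0.40 (adjusted p = 0.253, edgeR). Of 12 microglia markers 9 were lower, 0 passed and 2 had an unadjusted p under 0.05, with a median of -0.11, and 7 of 12 astrocyte markers were higher with a median of 0.02. Among 14 tested genes known to rise in aged mouse brain, 10 were lower, 0 passed and 1 had an unadjusted p under 0.05, with a median of -0.12. That 1 was Clec7a, a receptor of activated microglia, with -0.71 (adjusted p = 0.449, edgeR), and the complement gene C3 had -1.31 ± 0.41 (SE, adjusted p = 0.273, edgeR). C3 ran from 0.97 through 3.84 to 25.8 CPM with vector and from 1.86 through 3.46 to 5.70 CPM with upACSS2 in replicates 4 to 12, so its vector mice were widely spread.

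The 14 genes were also measured in the other mice given these viruses. The 10-month mice (6 with upACSS2, 5 with vector) had dorsal hippocampus taken 2 weeks after the virus, at a lower dose, and 30 minutes after fear conditioning. The PS19 mice were given the virus at 2.5 months of age, and 5 of each virus were taken 1 month and 6 months after it. They were labelled dorsal hippocampus except the upACSS2 mice at 1 month, labelled whole hippocampus. At 1 month the virus and the labelled tissue thus cannot be told apart. Thalamic markers were higher with upACSS2 in 9 of 10 cases there, with a median log2 fold change of 0.79. In the 10-month mice 12 of the 14 genes had the direction seen in aged mice, against 55.7% of all genes, and the median log2 fold change of the 13 was 0.22. Flt1 had 0.29 ± 0.17 (SE) and Adgrf5 0.24 ± 0.14 (SE) there (adjusted p = 0.606 and 0.623, edgeR). In PS19 mice 7 of the 14 had that direction at 1 month (median of the 13 0.00, 58.2% of all genes) and 9 at 6 months (median 0.08, 38.7% of all genes). At 6 months Tinagl1 had 1.30 ± 0.43 (SE) and Tie1 0.62 ± 0.25 (SE), and Atp5pb had 0.37 ± 0.09 (SE), opposite in sign to the aged mice (adjusted p = 0.224, 0.278 and 0.147, edgeR). Atp5pb was not alone in this. At 6 months 16 of 16 ATP synthase, 16 of 16 respiratory chain and 18 of 18 cytosolic ribosomal protein genes were higher (medians 0.28, 0.19 and 0.32). Of 11 nuclear-retained noncoding RNAs 0 were higher there (median -0.80). Acss2 itself had 0.31 ± 0.07 (SE) in the 10-month mice (adjusted p = 0.518, edgeR). In PS19 mice it had 3.53 ± 0.64 (SE) at 1 month and 1.19 ± 0.595 (SE) at 6 months (adjusted p = 0.371 and 0.373, edgeR). At 1 month its mean was 636 ± 646 CPM (SD) with upACSS2 and 55.1 ± 6.33 CPM (SD) with vector.

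None of the 14 passed in those mice, where edgeR called 0 genes in each comparison, with 1204, 463 and 2237 at an unadjusted p under 0.05 (8.83%, 2.92% and 14.1%). DESeq2 called 4, 1 and 135. The median of the endothelial markers was 0.20 at 10 months, -0.11 in PS19 mice at 1 month and 0.23 at 6 months, and that of the mural and meningeal markers -0.32, -0.13 and -0.04. The experiments came as separate tables with other ages, tissues and doses, so the difference between them was not tested.

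**Figure D5:**
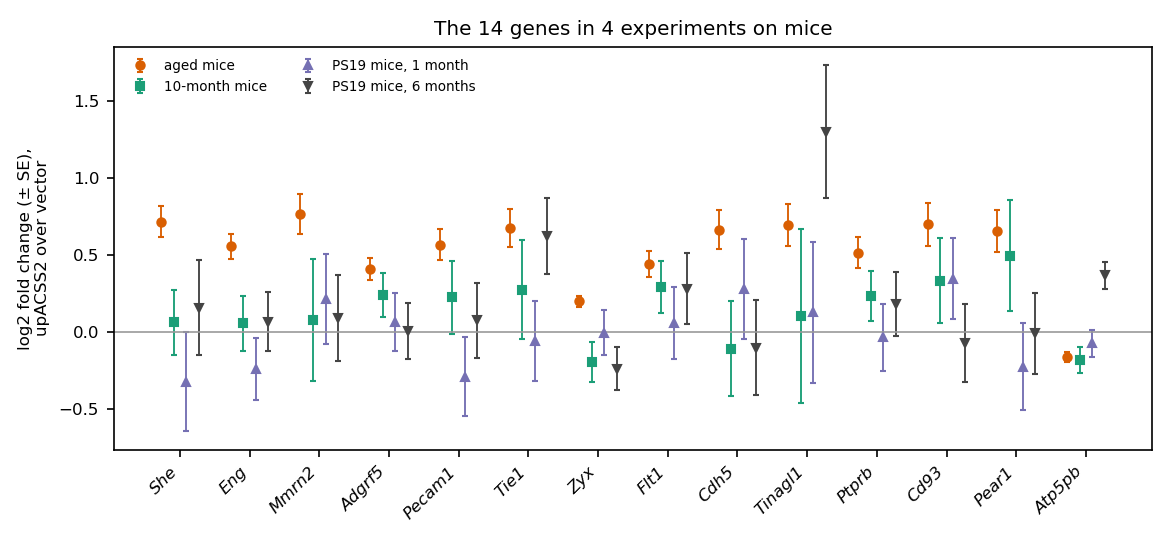
Log2 fold change with SE (upACSS2 over vector) of the 14 genes called in the aged mice, in the aged, 10-month and PS19 mice. The errors are smallest in the aged mice. Their sign is shared by 12 of 14 genes in the 10-month mice. In PS19 mice it is shared by 7 at 1 month and 9 at 6 months after the virus. At 1 month the viruses also differ in the labelled tissue.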

How the data were processed

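RNA of 24 aged mouse hippocampi was sequenced. Raw counts for each gene symbol were deposited, 1 column per library. The submitters' processing notes name mm10, STAR, featureCounts, HTSeq and DESeq2 without roles. The strand setting is not given in the sources used here. 

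The main test was that of edgeR 4.0.16 (R 4.3.3, TMM scaling, filterByExpr by virus, terms for replicate set and virus, quasi-likelihood F test, Benjamini-Hochberg over 15157 of 55367 genes, two-sided). On simulated counts over 15058 genes of the aged mice, this recovered 64% of genes changed 1.25-fold, 90% of those changed 1.5-fold and 100% of those changed 2-fold, with 1.12% false calls. The simulation changed 200 genes above a floor on the mean count, by up to 3-fold, and drew each gene independently. The data had 14 calls, and variation shared by genes within a library was not simulated, so these rates may not carry over. CPM are TMM-scaled. The 10-month and PS19 tables were fitted separately, all 4 PS19 groups together. Alternatives were DESeq2 1.42.0, limma-voom 3.58.1, other scalings and filters, the replicate number as a block, subsets, leaving out each library and, added after seeing the data, 4 covariates.

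The members and the lists (42 written with the design and 18, mostly vascular, added later) were chosen with earlier results of these data known. The lists of pan-endothelial, VEGF, BMP, junction, flow, transcription factor, transporter, basement membrane and pericyte genes belong to those added. So do those of arterial, venous, Notch, smooth muscle, noncoding RNA and ATP synthase genes. Named genes were Acss2, every called gene, genes to rank 30 by p, up to 3 members of lowest p per list, marker genes of highest level and the interaction's lowest p. Other genes (Emcn, Adgrl4, Lsr, Esam, Angpt2, Ly6a, Hdac7 and proteasome genes among them) were named after their values were seen. Of the symbols, 96.3% were found in GENCODE M21 (GRCm38), the source of coordinates. The titles number the libraries within each virus, and each was taken as a separate mouse, which the labels do not spell out. If that does not hold, p-values measure only the spread between libraries. No pair of libraries of a group matched to within counting error (chi-square of 4.09 or more per gene over 132 pairs).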

Additional observations from a re-analysis of the deposited data

Results flagged for a closer look

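Of 12 checks, of Acss2 and of the endothelial score in the groups of 10-month and PS19 mice, 1 found a library far from the rest, where chance gives about 0.6. In the PS19 mice with vector at 1 month, Acss2 was 66.34 CPM in replicate 1 and 51.5 to 53.14 CPM in the other 4. The treatment entries of this comparison's labels contradict some titles, and groups were taken from the titles.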

How the results depend on the processing

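The 14 genes kept their direction in every alternative fit of the aged mice. The number past the threshold was 14 in the main analysis, 69 with DESeq2 (53 higher, 16 lower), 6 in replicates 4 to 12 alone, 0 in replicates 1 to 3 alone, 0 without a term for the set, 1 with the hemoglobin score, 1 with the respiratory chain score and 23 with the nuclear noncoding RNA score as a covariate. It was 13 with RLE size factors, 18 without a filter, 13 with a stricter filter, 13 with limma-voom and 16 with log2 total count as a covariate. Leaving out 1 library gave 4 (without upACSS2 replicate 7, 8 or 12) to 44 (without vector replicate 3), and She, Eng, Mmrn2 and Adgrf5 passed in 24 of 24 such fits, Pecam1 and Tie1 in 21, Zyx in 18, Flt1 in 13, Cdh5 in 12, Tinagl1 in 11, Ptprb in 10, Cd93 in 9, Pear1 in 7 and Atp5pb in 6. Atp5pb also did not pass with RLE size factors (0.0506), no filter (0.106), the stricter filter (0.051), limma-voom (0.0515) or the block (0.19). With the replicate number as a block 13 genes passed, 8 of them shared with the 14. Same-numbered libraries did not deviate together (correlations from -0.419 to 0.136, 2 of 12 pairs over 0.1, and 1 library correlated best with its own number), so the numbers do not pair the mice.

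Acss2 differed by 6.37 to 7.69 CPM without any 1 library and by 6.09 CPM in replicates 1 to 3. The interaction gave 1 gene in DESeq2 and 0 to 1 without 1 library (1 without upACSS2 replicate 1). DESeq2 called 4 genes in the 10-month mice, where leaving out a library gave 0 throughout. In PS19 mice DESeq2 called 1 at 1 month, where no filter also gave 1, and 135 at 6 months. Leaving out a library there gave 0 to 2 at 1 month (2 without upACSS2 replicate 1, 1 without replicate 4) and 0 to 78 at 6 months (78 without upACSS2 replicate 4, 1 without replicate 5). The cause was not tested.

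Small differences changed sign, none of them past the threshold. Fos was 0.041 with limma-voom, 0.0031 with the block, 0.058 in replicates 4 to 12 and 0.16 with the respiratory chain score. Arc and Egr1 were 0.048 and 0.072 in replicates 4 to 12. Without any 1 library Fos ran from -0.13 to 0.21, Arc from -0.18 to 0.021 and Egr1 from -0.15 to 0.15, and without vector replicate 6 the 3 values were 0.21, 0.021 and 0.15. In replicates 1 to 3 Syn1 was -0.030, Shank1 -0.055, Malat1 0.0097, Psmd14 0.016, Psmb1 0.041, Psmb7 0.032 and Psma2 0.036. With the hemoglobin score, which holds their own or related counts, Hbb-bs was -0.031, Hbb-bt -0.071 and Alas2 -0.031, and with the noncoding RNA score Meg3 was 0.048. Depth limits the genes near 1 CPM, where 1 library holds few counts.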

Other observations

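Genes of the proteasome are given here after their values were seen. Of 37 subunit genes tested (Psma, Psmb, Psmc and Psmd), 35 were lower with upACSS2 and 2 higher, 0 passed in edgeR, and 19 lower and 0 higher genes had an unadjusted p under 0.05, against 4.70% and 5.06% of all genes. Their median log2 fold change was -0.09, and the median difference was 0.01 within replicates 1 to 3 and -0.10 within replicates 4 to 12. Psmd14, Psmb1, Psmb7 and Psma2, subunits of the complex that degrades ubiquitin-tagged proteins, were lower in every upACSS2 mouse than in every vector mouse of replicates 4 to 12. They are among 11 such genes of all those tested (0.0726%). Over both sets their log2 fold changes were -0.13, -0.13, -0.11 and -0.10, and none passed (adjusted p = 0.25, 0.25, 0.316 and 0.329, edgeR). Within replicates 1 to 3 alone the values were 0.02, 0.04, 0.03 and 0.04. Of the 10 dentate gyrus markers 9 were higher (median log2 fold change 0.18), and of the 8 CA1 markers 6 were lower with a median of -0.14. These 2 medians were 0.41 and -0.64 within replicates 1 to 3 and 0.11 and 0.04 within replicates 4 to 12.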
